A study of Mus musculus with 18 samples.

Results

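The SREBP, ChREBP and LXR lipogenic regulators are a family of transcription factors, sensors and an effector that set the level of fatty acid and cholesterol synthesis. They were taken by gene name from the expression table: Srebf1, Srebf2, Mlxipl, Mlx, Scap, Insig1, Insig2, Nr1h2, Nr1h3 and Pnpla3, 10 of 21899 listed genes, all present and each read in all 18 libraries by tissue and diet. RNA-seq was made from liver, epididymal white adipose tissue (eWAT) and quadriceps muscle of wild type C57BL/6 male mice that were 18 weeks old at sampling. The HSD group had eaten an 8% NaCl diet and drunk 0.9% saline for 12 weeks, and the CON group had chow and tap water over the same time. Each tissue and diet had 3 libraries of total RNA, named here by tissue, diet and replicate number, and a library of one tissue often came from a mouse that also gave another. Values are FPKM, fragments per exon length and per library total, so levels of different genes are compared per length. Fold changes are differences of log2(FPKM + 0.5) between group means, HSD minus CON, which understates the change of low genes. Differentially expressed genes (DEGs) had to pass 2 limits in limma, a Benjamini-Hochberg adjusted p under 0.05 and a log2 fold change of 1 or more in either direction.

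SREBP-1 and SREBP-2, encoded by Srebf1 and Srebf2, are made as precursors in the membrane of the endoplasmic reticulum. The escort protein Scap carries them to the Golgi for cleavage when sterols are low, and the Insig proteins hold Scap back when sterols are high, so that much of the control is on the protein and not on the transcript. The oxysterol receptors LXR-alpha (Nr1h3) and LXR-beta (Nr1h2) drive Srebf1 transcription, the glucose-sensing factor ChREBP (Mlxipl) acts with its partner Mlx, and Insig1 and the lipid droplet protein gene Pnpla3 are themselves known targets of SREBP.

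The promoters of Insig1 and Pnpla3 are shown because these members had the lowest HSD values relative to CON among the 10. Sequences are from RefSeq on build GRCm38.p6 (mm10), 5′ to 3′ on the + strand. Both genes lie on that strand. Insig1 is shown at chr5:28071162-28071362, ending before its annotated first exon, and Pnpla3 at chr15:84167566-84167815. Capitals mark matches on either strand to an E-box (CACGTG), a sterol response element (TCACNCCAC), a CCAAT box (CCAAT), a GC box (GGGCGG) or a nuclear receptor half-site (AGGTCA).
Insig1: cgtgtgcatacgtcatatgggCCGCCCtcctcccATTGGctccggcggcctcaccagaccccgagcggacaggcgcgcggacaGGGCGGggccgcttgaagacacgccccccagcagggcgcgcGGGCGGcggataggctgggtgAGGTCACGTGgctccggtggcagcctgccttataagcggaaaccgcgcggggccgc
Pnpla3: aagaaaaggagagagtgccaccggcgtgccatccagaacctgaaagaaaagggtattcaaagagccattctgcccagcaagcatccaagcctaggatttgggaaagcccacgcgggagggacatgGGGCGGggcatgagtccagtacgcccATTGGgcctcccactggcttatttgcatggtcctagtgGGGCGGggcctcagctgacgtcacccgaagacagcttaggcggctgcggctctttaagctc

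The Insig1 window held an E-box that overlapped a nuclear receptor half-site, 3 GC boxes and a CCAAT box on the reverse strand. The Pnpla3 window held 2 GC boxes and a reverse CCAAT box. All 10 members had at least 1 RefSeq start in the promoter table, and over the 250 bases before these starts an E-box was found for 4 members, a GC box for 7, a CCAAT box for 7, a half-site for 1 (Insig1) and the sterol response element for 1, at a second start of Mlxipl. Of 32851 promoter windows of the same length, 6.02% held the E-box, 32.7% the GC box, 33.8% the CCAAT box, 14% the half-site and 1.05% the sterol response element. A member was counted if any of its 1 to 3 starts held a match, while the shares are per window. Members with several starts thus had more chances of a match, and the counts and shares are not on the same unit. A match is a description of these letters only.

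Libraries held 7628071 to 16637489 fragments by a fit to the FPKM. Adipoq and Plin1 marked eWAT, Acta1 marked muscle and Alb marked liver as labelled, with exceptions. The eWAT HSD replicate 2 library had a summed level of 24760 FPKM over 15 epididymal epithelium markers, against 10.5 at most in eWAT CON, and its Plin1 was 181 FPKM against 501 to 584 in the other eWAT libraries. The Liver CON replicate 2 library had 5289 FPKM over 12 skeletal muscle markers, against at most 5.71 in Liver HSD. The share of fragments from the 13 mitochondrially encoded genes ran from 25.7% to 60.8% in Liver CON and from 15.4% to 44.4% in Liver HSD, and these fragments are part of the total that FPKM divides by. In eWAT all 12 hepatocyte markers were lower in HSD without overlap (median log2 fold change -2.88), 11 of them at an unadjusted p under 0.05. Of all genes in eWAT 28.6% did not overlap and 16.7% had such a p. Alb in eWAT was 53.9 to 167 FPKM in CON and 3.30 to 7.85 in HSD. Skeletal muscle markers were higher in eWAT HSD for 9 of 9 tested, summing to 8.55 to 18.1 FPKM in CON and 31.5 to 46.8 in HSD. In liver 11 of 12 hepatocyte markers were higher in HSD (median 0.93), and Liver CON replicate 1 stood apart with a sum of 17340 FPKM against 67050 and 84007 in the other Liver CON libraries. Macrophage markers summed higher in CON than in HSD in every tissue, at 605.5 to 902 against 269 to 587 FPKM in eWAT, 67.2 to 78.0 against 28.4 to 46.3 in liver and 59.2 to 93.8 against 44.2 to 48.2 in muscle. The part of these differences in the results was not tested, and results that rest on the first 2 libraries are also given without them. In bulk tissue, fewer cells of a type and less RNA per cell cannot be told apart.

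The regulators had distinct tissue levels in CON mice. Pnpla3 had by far its highest level in eWAT, Mlxipl and Insig1 had their highest FPKM in liver, and on the deposited scale the LXR genes and Srebf1 were highest in eWAT. Pnpla3 averaged 249.9 FPKM ± 71.2 (SD, n = 3) in eWAT, 4.43 ± 0.303 in muscle and 0.476 ± 0.170 in liver, a 525-fold range. Mlxipl averaged 141.5 ± 35.5 in liver, 25.7 ± 4.93 in eWAT and 13.5 ± 0.0938 in muscle. Insig1 averaged 94.0 ± 5.66 in liver, 60.8 ± 7.51 in eWAT and 7.25 ± 0.339 in muscle. These are the members with the widest ranges between tissues.

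Srebf1 followed the order eWAT, liver and muscle at 82.8 ± 9.99, 48.7 ± 15.7 and 17.3 ± 1.35 FPKM, with no overlap between neighbours. Srebf2 had lower levels per length than Srebf1 in every CON library, at 10.7 ± 0.334 in eWAT, 3.95 ± 0.533 in liver and 3.16 ± 0.225 in muscle. Liver and muscle Srebf2 libraries did not overlap, and the log2 difference of muscle from liver was -0.28 (adjusted p = 0.0873) as deposited, -0.87 (adjusted p = 0.000254) with median-ratio scaling and -0.83 (adjusted p = 0.00724) with mitochondrially encoded genes left out. Nr1h3, the LXR of lipid-handling tissue, averaged 42.1 ± 2.996 in eWAT, 22.7 ± 4.41 in liver and 7.07 ± 0.399 in muscle, while Nr1h2, the widely expressed LXR, averaged 31.4 ± 1.75, 10.8 ± 0.460 and 13.9 ± 1.43. Nr1h2 was thus above Nr1h3 per length in muscle and below it in liver and eWAT.

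Scap averaged 9.27 ± 0.562 in liver, 6.31 ± 0.210 in eWAT and 2.10 ± 0.0648 in muscle, and Mlx 14.0 ± 2.57 in eWAT, 8.79 ± 1.03 in liver and 4.98 ± 0.291 in muscle. Insig2, the Insig that SREBP does not drive, was close between eWAT (22.3 ± 1.92) and muscle (20.7 ± 0.620), whose libraries overlapped, and averaged 13.2 ± 2.75 in liver. The balance of the Insig genes therefore differed by tissue. The ratio of Insig2 to Insig1 was 0.116, 0.157 and 0.147 in the Liver CON libraries and 2.82, 2.95 and 2.79 in the Muscle CON libraries.

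In the tests between tissues, 4 of 10 members were called between eWAT and liver, where 69.4% of all genes were called. Muscle against liver gave 6 of 10, with 50.1% of all genes called, and eWAT against muscle gave 8 of 10, with 54.9%. Liver had the largest share of mitochondrial fragments, and the median of all genes was 1.36 higher in eWAT than in liver on the log2 scale, 0.52 higher in muscle than in liver and 0.93 higher in eWAT than in muscle. With median-ratio scaling these medians came to -0.03, 0.08 and 0.07. Pnpla3 (log2 difference 7.98, and 6.68 with that scaling) and Mlxipl (-2.42 and -4.06) were called in the same direction between eWAT and liver under both scalings. Srebf2 and Nr1h2 were called higher in eWAT than in liver as deposited, at 1.34 and 1.495, and turned to -0.20 and -0.12 with median-ratio scaling. Srebf1 and Nr1h3, at 0.80 and 0.90 as deposited, turned to -0.85 and -0.74. With mitochondrially encoded genes left out, Srebf2, Nr1h2, Srebf1 and Nr1h3 kept the direction of the deposited scale, at 0.65, 0.76, 0.04 and 0.15. On that scale Srebf2 and Nr1h2 lost their calls, and Srebf1 and Nr1h3 were near 0 (limma adjusted p = 0.892 and 0.694). Between muscle and liver all 6 calls remained with median-ratio scaling: Pnpla3 higher in muscle, and Mlxipl, Insig1, Scap, Nr1h3 and Srebf1 lower. Between eWAT and muscle, median-ratio scaling kept the calls of Pnpla3, Insig1, Nr1h3 and Srebf1, but not those of Srebf2, Mlx, Scap and Nr1h2. With mitochondrially encoded genes left out, Srebf2, Mlx and Scap kept their calls at 1.48, 1.25 and 1.26, and Nr1h2 at 0.99 did not.

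**Figure D1:**
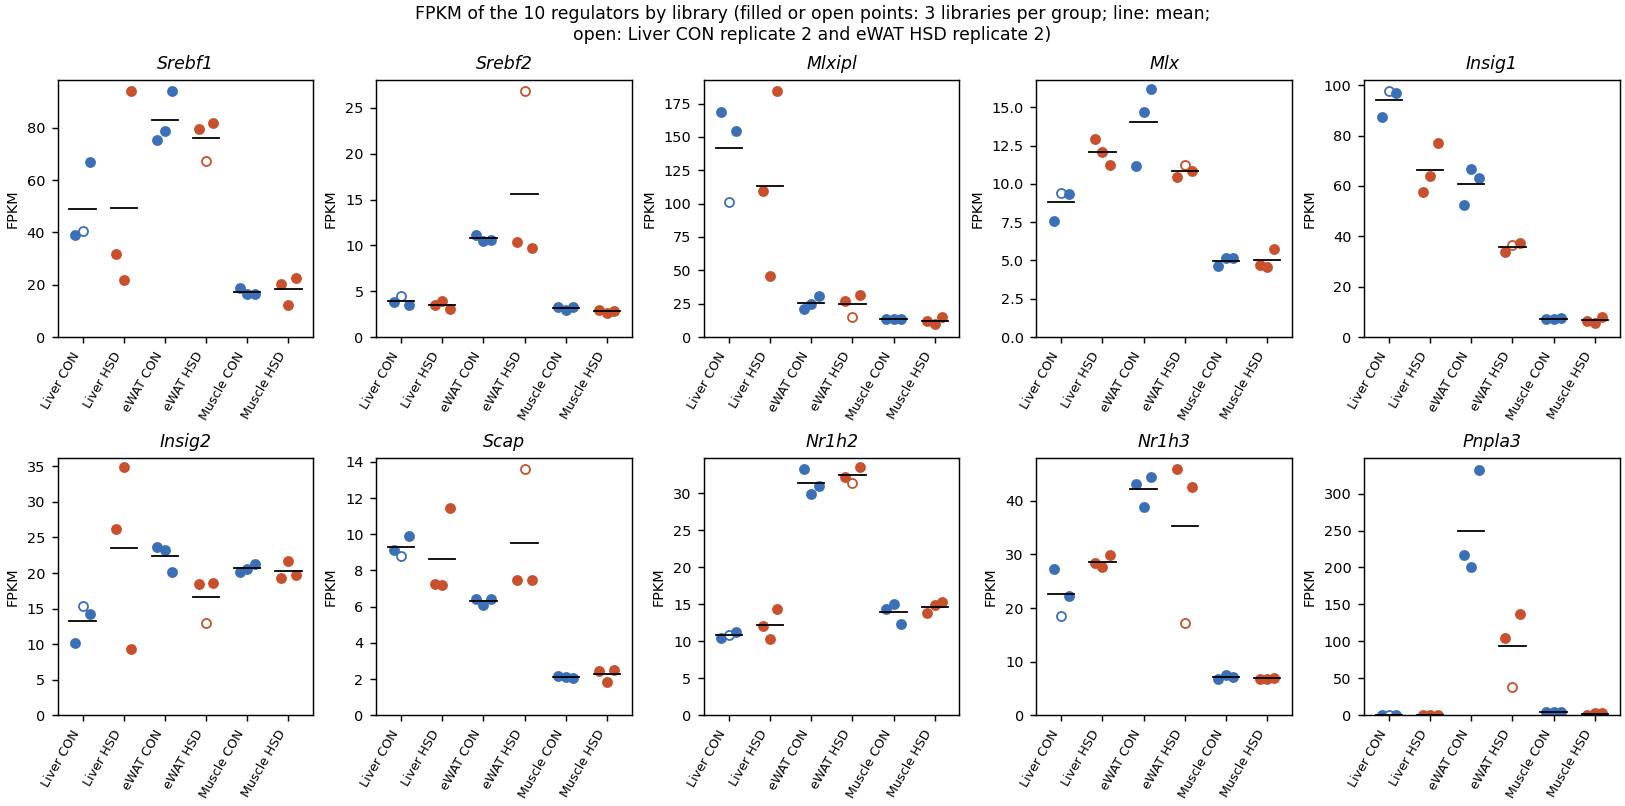
FPKM of each of the 10 regulators (y axis, linear from 0, own scale per gene) in each library, by tissue and diet on the x axis. Points are libraries, lines are means of 3, and open points are Liver CON replicate 2 and eWAT HSD replicate 2. Insig1 in eWAT and Pnpla3 in eWAT and muscle lie lower in every HSD library than in any CON library, while the open eWAT point stands apart for Srebf2, Scap and Nr1h3.

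The question put to the regulators by the diet was whether their transcripts differed between HSD and CON mice of a tissue. By limma no member was called a DEG in any tissue. The members with the largest differences relative to their spread were Insig1 in eWAT, at 59.1% of its CON mean, and Pnpla3, at 37.2% of its CON mean in eWAT and 45.2% in muscle. Srebf1, the master gene of lipogenesis, was in HSD mice at 92% of its CON mean in eWAT, 101% in liver and 106% in muscle.

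Few or no genes were called in each tissue, but an unadjusted p under 0.05 was common in eWAT and muscle. In liver 0 of 9 tested members were called, and 0% of 10317 genes were called, with 592 genes (5.74%) and 0 members at an unadjusted p under 0.05. In eWAT 0 of 10 members and 0% of 13740 genes were called, with 2298 genes (16.7%) and 3 members, Insig1, Insig2 and Pnpla3, at an unadjusted p under 0.05. In muscle 0 of 10 members and 0.323% of 10834 genes (35) were called, with 1761 genes (16.3%) and 1 member, Pnpla3, at that unadjusted p. Limma voom on the fragments recovered from the FPKM called 0 genes in liver, 0 in eWAT and 66 in muscle, and no member. Members whose CON and HSD libraries did not overlap numbered 3 of 9 in liver, 4 of 10 in eWAT and 1 of 10 in muscle, where 12.1%, 28.6% and 22.3% of all genes did not overlap.

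**Figure D2:**
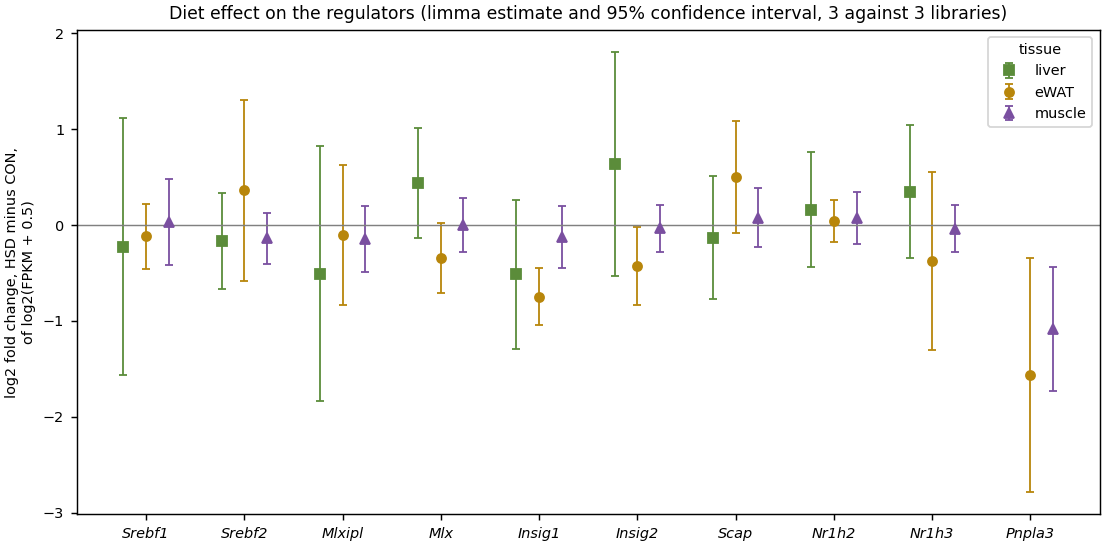
Difference of log2(FPKM + 0.5), HSD minus CON (y axis), for each regulator (x axis) in liver, eWAT and muscle; points are limma estimates from 3 against 3 libraries and bars 95% confidence intervals, with Pnpla3 in liver left out as too low to test. The intervals of Insig1 and Insig2 in eWAT and of Pnpla3 in eWAT and muscle lie below 0, and those of Srebf1 and Mlxipl are far wider in liver than in the other tissues.

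Srebf1 (ENSMUSG00000020538, chr11:60199089-60222581, - strand) showed no common direction with diet. In liver it measured 38.9, 40.5 and 66.8 FPKM in the CON libraries and 31.7, 21.9 and 93.9 in the HSD libraries. The HSD libraries of liver lay on both sides of the CON libraries and spanned a 4.28-fold range (log2 fold change -0.23, 95% CI -1.57 to 1.12, adjusted p = 0.912). Without Liver HSD replicate 3, the high library, the value was -0.83 (adjusted p = 0.368). That library had 44.4% mitochondrial fragments, against 16.3% and 15.4% in the other HSD livers, and the part of this in the value was not tested. With arrayWeights, which down-weights libraries that stand apart, the value was -1.02 with an adjusted p of 0.000298, the only one of its settings in which it was called. That setting called 926 of the 10317 genes tested in liver, where the main fit called 0.

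In eWAT Srebf1 measured 75.4, 78.8 and 94.2 in CON and 79.4, 67.1 and 82.0 in HSD. The groups overlapped, and the interval was narrow (-0.12, 95% CI -0.46 to 0.22, adjusted p = 0.641). In muscle it measured 18.8, 16.6 and 16.4 in CON and 20.1, 12.3 and 22.4 in HSD, again overlapping (0.04, 95% CI -0.41 to 0.49, adjusted p = 0.948). Transcript isoforms of Srebf1 are summed in the table, so SREBP-1a and SREBP-1c were not separated.

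Srebf2 (ENSMUSG00000022463, chr15:82147181-82205379, + strand), which directs cholesterol synthesis, had 1 library far from the rest. Liver gave 3.87, 4.53 and 3.47 FPKM in CON and 3.5, 3.92 and 3.01 in HSD (-0.16, limma adjusted p = 0.821). Muscle gave 3.30, 2.90 and 3.29 in CON and 2.97, 2.67 and 2.84 in HSD (-0.14, limma adjusted p = 0.590). Both overlapped as deposited but not with mitochondrially encoded genes left out. On that scale liver was at 5.58 to 9.87 in CON and 4.18 to 5.42 in HSD, where the median of all genes was -0.20. Muscle was at 3.48 to 3.84 in CON and 3.14 to 3.35 in HSD. Over 21 settings the liver value ran from -0.61 to 0.01. In eWAT Srebf2 gave 11.1, 10.5 and 10.6 in CON and 10.3, 26.8 and 9.68 in HSD. The value of 26.8 belongs to eWAT HSD replicate 2, the library with epididymal transcripts, and the other HSD libraries lay just under CON. The eWAT fold change was 0.36 (adjusted p = 0.610) over all libraries and -0.10 without that one.

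Mlxipl (ENSMUSG00000005373, chr5:135089890-135138382, + strand) encodes ChREBP. In liver it measured 169, 101 and 154.5 FPKM in CON and 110, 45.5 and 184 in HSD. Its HSD libraries again enclosed the CON libraries, with the same library, HSD replicate 3, highest for Mlxipl as for Srebf1 (-0.51, 95% CI -1.83 to 0.82, adjusted p = 0.798, and -0.96 without HSD replicate 3). In eWAT it measured 21.2, 25.0 and 30.9 in CON and 27.1, 15.3 and 31.8 in HSD, overlapping with a fold change of -0.10 (adjusted p = 0.860). Muscle CON libraries were nearly identical at 13.4 to 13.6, and the HSD libraries at 11.8, 9.93 and 15.3 lay around them (-0.15, adjusted p = 0.673).

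Mlx (ENSMUSG00000017801, chr11:101087277-101092207, + strand), is the partner with which ChREBP binds DNA. Liver gave 7.61, 9.42 and 9.35 FPKM in CON and 12.9, 12.0 and 11.2 in HSD, with every HSD library above every CON library (log2 fold change 0.44, 95% CI -0.13 to 1.01, adjusted p = 0.764). With mitochondrially encoded genes left out the groups overlapped at means of 15.7 and 16.6, with a value of 0.08, and without Liver CON replicate 2 as well it was -0.06. In eWAT Mlx gave 11.2, 14.7 and 16.2 in CON and 10.4, 11.2 and 10.9 in HSD, so that the HSD libraries lay at the low end of CON (-0.34, adjusted p = 0.318). Muscle overlapped at 4.64 to 5.15 in CON and 4.58 to 5.73 in HSD. The ratio of Mlxipl to Mlx, which the scale of a library does not touch, was 22.2, 10.8 and 16.5 in Liver CON and 8.49, 3.77 and 16.4 in Liver HSD, with overlap through HSD replicate 3.

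Scap (ENSMUSG00000032485, chr9:110333288-110384950, + strand), the sterol-sensing escort of SREBP, measured 9.14, 8.78 and 9.88 FPKM in Liver CON and 7.25, 7.17 and 11.4 in Liver HSD, which overlapped (-0.13, adjusted p = 0.893). In eWAT it measured 6.44, 6.07 and 6.44 in CON and 7.47, 13.6 and 7.45 in HSD. Every HSD library was above CON, with 13.6 in the epididymal library (0.50, 95% CI -0.09 to 1.09, adjusted p = 0.348, and 0.23 without it). Muscle gave 2.04 to 2.17 in CON and 1.83 to 2.52 in HSD, from 170 to 240 fragments per library.

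Insig1 (ENSMUSG00000045294, chr5:28071363-28078662, + strand) retains Scap in the endoplasmic reticulum and is a classical readout of nuclear SREBP. In eWAT it measured 52.3, 66.7 and 63.2 FPKM in CON and 33.9, 36.4 and 37.5 in HSD. The groups did not overlap, the HSD libraries were within 1.11-fold of each other, and the epididymal library lay between the other two. The log2 fold change was -0.75 (SE 0.12, 95% CI -1.05 to -0.44) with an unadjusted limma p of 0.000947 and an adjusted p of 0.114. It was under the fold limit in every fit, between -0.85 and -0.67 with single libraries left out, and the adjusted p ran from 0.014 to 0.526 over 21 settings. Without eWAT HSD replicate 2 it was -0.76 with an adjusted p of 0.0304. Per FPKM of the adipocyte gene Plin1, Insig1 stood at 0.104, 0.119 and 0.108 in CON and at 0.0602, 0.201 and 0.0696 in HSD. On that scale the groups overlapped through HSD replicate 2, whose Plin1 was low.

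In liver Insig1 measured 87.4, 97.5 and 97.0 FPKM in CON and 57.6, 63.8 and 77.2 in HSD, at 70.4% of the CON mean and with no overlap. The limma test did not call it (-0.51, SE 0.33, 95% CI -1.29 to 0.27, adjusted p = 0.764). Over 21 settings it ran from -1.05 to -0.42, and the adjusted p from 0.000169 with arrayWeights to 1. With mitochondrially encoded genes left out of the scale the CON libraries were at 223, 131 and 156 and the HSD libraries at 68.8, 75.4 and 139, which overlapped through HSD replicate 3, the HSD library richest in mitochondrial fragments. The fold change on that scale was -0.89, where the median of all genes was -0.20 against 0.13 as deposited. In muscle Insig1 overlapped between diets, at 7.12, 6.99 and 7.63 in CON and 6.51, 5.48 and 8.001 in HSD (-0.13, 95% CI -0.45 to 0.20, adjusted p = 0.704).

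Insig2 (ENSMUSG00000003721, chr1:121304353-121332589, - strand) measured 23.7, 23.2 and 20.1 FPKM in eWAT CON and 18.4, 13.0 and 18.6 in eWAT HSD. The lowest of these, 13.0, was the epididymal library, and no HSD library reached the lowest CON library (-0.43, SE 0.17, adjusted p = 0.281, and -0.26 without that library). In liver it measured 10.1, 15.3 and 14.3 in CON and 26.2, 34.9 and 9.33 in HSD. HSD replicates 1 and 2 were above all CON libraries and HSD replicate 3 was below them (0.64, 95% CI -0.53 to 1.80, adjusted p = 0.764). The same division of the Liver HSD libraries showed in the ratio of Insig2 to Insig1, at 0.455, 0.547 and 0.121, against 0.116 to 0.157 in CON. Muscle overlapped at 20.1 to 21.3 in CON and 19.2 to 21.7 in HSD.

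Nr1h3 (ENSMUSG00000002108, chr2:91184061-91202834, - strand) encodes LXR-alpha. In liver it measured 27.3, 18.5 and 22.2 FPKM in CON and 28.5, 27.6 and 29.8 in HSD, every HSD library just above CON, with the lowest value in Liver CON replicate 2 (0.35, 95% CI -0.34 to 1.04, adjusted p = 0.764). The sign of this difference depended on the scale, at -0.02 with mitochondrially encoded genes left out. In eWAT it measured 43.2, 38.8 and 44.5 in CON and 46.0, 17.3 and 42.6 in HSD. Only the epididymal library stood apart, and the fold change was -0.37 with it and 0.07 without it. In muscle it was 6.69 to 7.49 in CON and 6.80 to 6.99 in HSD.

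Nr1h2 (ENSMUSG00000060601, chr7:44549616-44553951, - strand), the gene of LXR-beta, was the steadiest member in eWAT, at 33.3, 29.9 and 31.0 FPKM in CON and 32.2, 31.3 and 33.6 in HSD (0.05, 95% CI -0.17 to 0.26, adjusted p = 0.784). The epididymal library did not stand apart for it. Liver gave 10.4, 10.8 and 11.3 in CON and 12.1, 10.3 and 14.3 in HSD, and muscle 14.4, 15.0 and 12.3 in CON and 13.8, 14.9 and 15.3 in HSD, with overlap in both.

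Pnpla3 (ENSMUSG00000041653, chr15:84167837-84187236, + strand) encodes a lipid droplet protein with lipase activity. In eWAT it measured 217, 201 and 331.5 FPKM in CON and 104, 38.7 and 137 in HSD. All HSD libraries were below all CON libraries, from 737 to 8539 fragments per library, and the lowest was the epididymal one. The log2 fold change was -1.57 (SE 0.50, 95% CI -2.78 to -0.35) with an adjusted p of 0.228. Without eWAT HSD replicate 2 it was -1.03 with an adjusted p of 0.0588, so this library moved the value by 1.52 times. Down-weighting of aberrant libraries by arrayWeights gave -1.16 and an adjusted p of 0.0444, the only fit of eWAT in which the gene was called. That setting called 220 of the 13740 genes tested in eWAT, where the main fit called 0. Over the alternatives the adjusted p ran from 0.0444 to 0.599.

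The eWAT difference of Pnpla3 was also read against adipocyte transcripts of the same libraries. Per FPKM of Plin1, which coats lipid droplets, Pnpla3 stood at 0.433, 0.359 and 0.568 in CON and 0.185, 0.214 and 0.254 in HSD. Per FPKM of the adipokine gene Adipoq it stood at 0.102, 0.102 and 0.163 in CON and 0.0537, 0.0559 and 0.0663 in HSD. On both scales every HSD library was below every CON library, and the epididymal library lay between the other two HSD libraries. These ratios were chosen after the data were seen.

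In muscle Pnpla3 measured 4.09, 4.53 and 4.68 FPKM in CON and 0.825, 2.74 and 2.45 in HSD, from 84, 83 and 81 against 17, 55 and 47 fragments. The CON libraries were close together, the HSD libraries were all below them, and HSD replicate 1 was far below the others. The log2 fold change was -1.08 (SE 0.29, 95% CI -1.73 to -0.43) with an adjusted p of 0.112. With the replicate number as a block, the adjusted p was 0.0407 and Pnpla3 was called downregulated, where 0.498% of all genes were called. CON and HSD mice are different animals, so the number does not pair them by design. Without Muscle HSD replicate 1 the value was -0.67, a 1.60 times smaller difference, with an adjusted p of 0.0423 and under the fold limit. Adipoq in the same libraries was 6.94, 16.5 and 7.25 FPKM in CON and 3.75, 17.6 and 13.7 in HSD, with overlap. Per FPKM of Adipoq, Pnpla3 stood at 0.590, 0.275 and 0.645 in CON and 0.220, 0.156 and 0.178 in HSD, with no overlap. Per FPKM of Plin1 it stood at 1.502, 0.6905 and 1.962 in CON and 0.5737, 0.6911 and 0.6596 in HSD, and there the groups overlapped.

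In liver Pnpla3 was at the edge of detection. It measured 0.339, 0.667 and 0.424 FPKM in CON and 0.0620, 0 and 0.151 in HSD, from 4, 12 and 6 against 1, 0 and 2 fragments. A count of 3 fragments would be worth 0.167 to 0.254 FPKM, so the HSD libraries lay below and the CON libraries above that floor. The mean was under the limit of 0.5 FPKM for testing. Summed over libraries and set against their totals, the HSD level was 0.132 times the CON level (exact 95% interval 0.0253 to 0.439, counting error only).

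**Figure D3:**
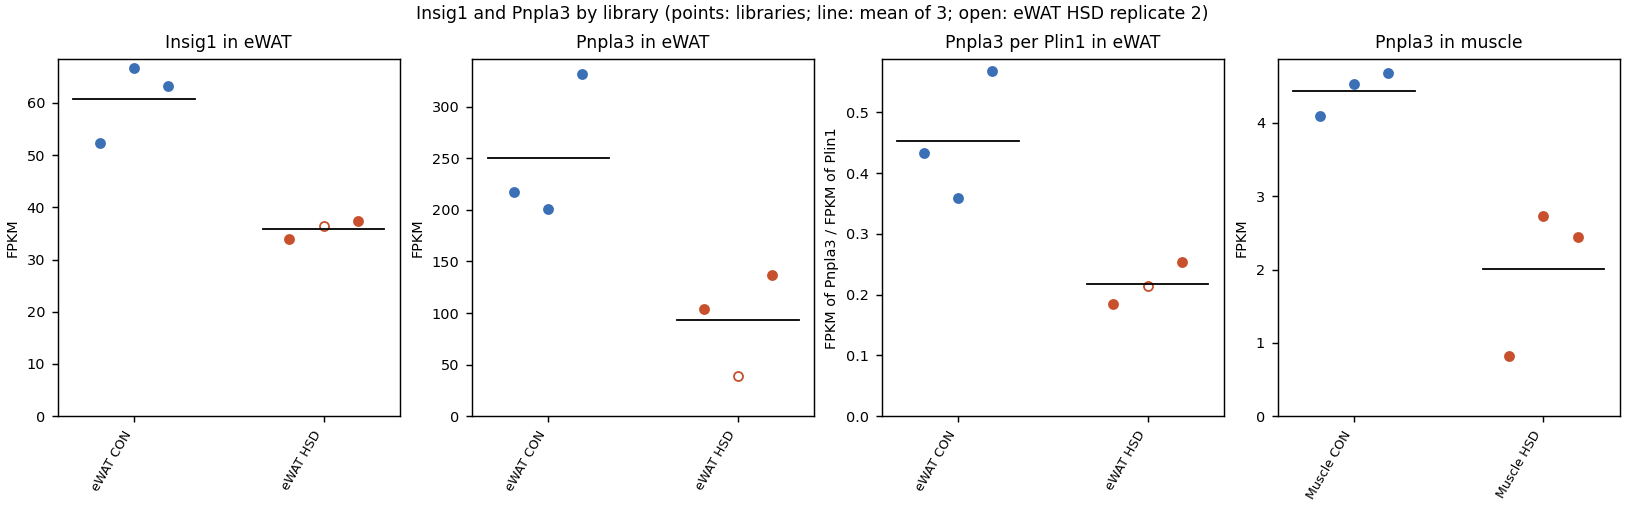
Insig1 and Pnpla3 in eWAT, Pnpla3 per Plin1 in eWAT and Pnpla3 in muscle, by diet on the x axis; y axes are FPKM or a ratio of FPKM, linear from 0, points are libraries, lines are means of 3, and the open point is eWAT HSD replicate 2. In each panel the 3 HSD points lie under the 3 CON points; the open point is the lowest for Pnpla3 FPKM (38.7) but not for Pnpla3 per Plin1 (0.214).

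Whether diet acted differently between tissues was tested as an interaction in 1 limma fit over all libraries. Between eWAT and liver 0 of 10 members and 0.758% of 13067 genes (99) were called, with 1792 genes (13.7%) and 2 members, Mlx and Insig2, at an unadjusted p under 0.05. Between muscle and liver it was 0 of 10 and 0.0612% (8), with 1039 genes (7.95%) and 0 members at that p, and between eWAT and muscle 0 of 10 and 0% (0), with 1045 genes (8%) and 1 member, Insig1. The nearest was Mlx, whose diet effect was 0.78 lower in eWAT than in liver on the log2 scale (SE 0.22, adjusted p = 0.133). For Insig1 the eWAT effect was 0.62 lower than the muscle effect (SE 0.25, adjusted p = 0.556), and for Insig2 it was 1.06 lower than the liver effect (adjusted p = 0.349). The liver side of Mlx and Insig2 depended on the scale. With mitochondrially encoded genes left out, the Liver CON and HSD means were 15.7 and 16.6 for Mlx, against 8.79 and 12.1 as deposited. For Insig2 they were 23.1 and 29.8, against 13.2 and 23.5. For Pnpla3 eWAT and muscle differed by -0.49 (95% CI -1.67 to 0.70, adjusted p = 0.858), an interval too wide to rank the tissues. The liver estimate of Pnpla3 in this fit rests on the few fragments above.

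Genes downstream of the regulators were read from lists of known targets, described by counts and medians. The SREBP-1 lipogenic targets had a lower mean level in every HSD library than in any CON library of its tissue, while the libraries overlapped for Srebf1 itself. That level over 15 genes, on the log2(FPKM + 0.5) scale, was 5.95, 6.14 and 6.28 in eWAT CON and 5.09, 5.57 and 5.27 in eWAT HSD. In liver it was 3.89, 4.26 and 4.48 in CON and 3.15, 3.40 and 3.34 in HSD, and in muscle 3.06, 3.34 and 3.04 in CON and 2.61, 2.76 and 3.01 in HSD. The margin was narrow in muscle. Such separation was not particular to SREBP targets. On the same scale LXR targets in muscle were at 1.925 to 1.983 in CON and 1.793 to 1.879 in HSD. Partners and coregulators in eWAT were at 3.252 to 3.286 in CON and higher, at 3.333 to 3.502, in HSD. As summed FPKM, in which the most abundant genes weigh most, the SREBP-1 list did not overlap in eWAT (5614 to 7017 in CON and 2023 to 3471 in HSD). It overlapped in liver (540.6 to 1022 and 313 to 574) and muscle (248 to 296 and 256 to 288). Adipocyte markers summed to 17875 to 19065 FPKM in eWAT CON and 7696 to 24748 in eWAT HSD, and so overlapped. By gene, 8 of 10 adipocyte markers were lower in HSD, 3 of them without overlap, 1 at an unadjusted p under 0.05 and 0 called. Of all genes in eWAT 28.6% did not overlap and 16.7% had an unadjusted p under 0.05. The median log2 fold change of the adipocyte markers was -0.485 against 0.08 over all genes, and their part in the target levels was not tested.

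Of the SREBP-1 targets tested in eWAT, 12 of 15 were lower in HSD and 0 were called, with a median log2 fold change of -1.26 against 0.08 over all genes. At an unadjusted p under 0.05, 6 were lower and 0 higher, beside 16.7% of all genes in either direction. The median was -0.65 without eWAT HSD replicate 1 and -0.80 without HSD replicate 3. Fasn, the fatty acid synthase, averaged 531 FPKM in CON and 59.7 in HSD (log2 fold change -3.13, SE 0.37, adjusted p = 0.0884), and Acss2, which makes acetyl-CoA from acetate, 10.7 and 3.94 (-1.35, adjusted p = 0.114). Without eWAT HSD replicate 2 the calls were 7 of 15, all downregulated, where 1.21% of all genes were called, Fasn among them with an adjusted p of 0.0227. At an unadjusted p under 0.05 there were then 10 lower and 2 higher, beside 27.7% of all genes.

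In liver 13 of 15 SREBP-1 targets were lower, with a median of -0.71 against 0.13 over all genes. Of the lower ones 7, and of the higher ones 0, had an unadjusted p under 0.05, beside 5.74% of all genes. In the same comparison 11 of 12 hepatocyte markers were higher (median 0.93) and 9 of 11 macrophage markers lower (median -0.75), with 0 called in either list, and their part in this was not tested. Acacb, the acetyl-CoA carboxylase of the mitochondrial surface, averaged 5.99 FPKM in CON and 0.516 in HSD (-2.70, SE 0.25, adjusted p = 0.0918), and Lpin1, a phosphatidate phosphatase, 9.09 and 2.54 (-1.67, adjusted p = 0.677). With mitochondrially encoded genes left out it was 10 of 15 lower at that unadjusted p, beside 4.16% of all genes, with a median of -1.08 against -0.20. The count of 7 was 6 of 14 without Liver CON replicate 2 and 3 without CON replicate 3, HSD replicate 1 or HSD replicate 2. In muscle 10 of 14 were lower, with 5 lower and 1 higher at that unadjusted p, beside 16.3% of all genes. The muscle median was -0.39 against -0.06 over all genes, and it was -0.26 without Muscle HSD replicate 1. Scd2, a stearoyl-CoA desaturase, averaged 13.0 and 6.43 (-0.97, SE 0.13, adjusted p = 0.0193) and missed only the fold limit, while Me1, the malic enzyme, averaged 84.5 and 111 (0.39, adjusted p = 0.137).

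The SREBP-2 cholesterol targets had a like pattern at lower levels. Their mean log2 level was 2.60, 2.94 and 2.93 in Liver CON and 2.39, 2.44 and 2.24 in Liver HSD, and 1.18, 1.23 and 1.23 in Muscle CON and 0.946, 0.979 and 1.04 in Muscle HSD, with no overlap in either tissue. In eWAT it was 2.64, 2.82 and 2.80 in CON and 2.21, 3.08 and 2.33 in HSD. The value of 3.08 was the epididymal library, the same library in which Srebf2 was at 26.8 FPKM, and the other HSD libraries were below CON.

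At an unadjusted p under 0.05, 8 of 20 SREBP-2 targets were lower in liver, 6 of 19 in eWAT and 6 of 19 in muscle, against 0, 0 and 1 higher, beside 5.74%, 16.7% and 16.3% of all genes in either direction. The medians were -0.46, -0.39 and -0.30, against 0.13, 0.08 and -0.06 over all genes. In eWAT 14 of 19 were lower, and without HSD replicate 1 or 3 it was 10 of 19, with medians of -0.08 and -0.13. Dhcr7, the last enzyme of cholesterol synthesis, and Mvd, of its mevalonate stage, averaged 6.998 and 9.20 FPKM in Liver CON and 2.31 and 3.11 in Liver HSD (-1.42 and -1.44, both with an adjusted p of 0.550). Mvk, the mevalonate kinase, averaged 12.3 in eWAT CON and 6.83 in eWAT HSD (-0.81, adjusted p = 0.0976). Without eWAT HSD replicate 2, 12 of 19 were lower at the unadjusted p, with a median of -0.60. Of the 19, 2 were then called downregulated, where 1.21% of all genes were called. In muscle Dhcr7 averaged 1.46 and 0.807 (-0.60, adjusted p = 0.119), and the median was -0.18 without Muscle HSD replicate 1.

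**Figure D4:**
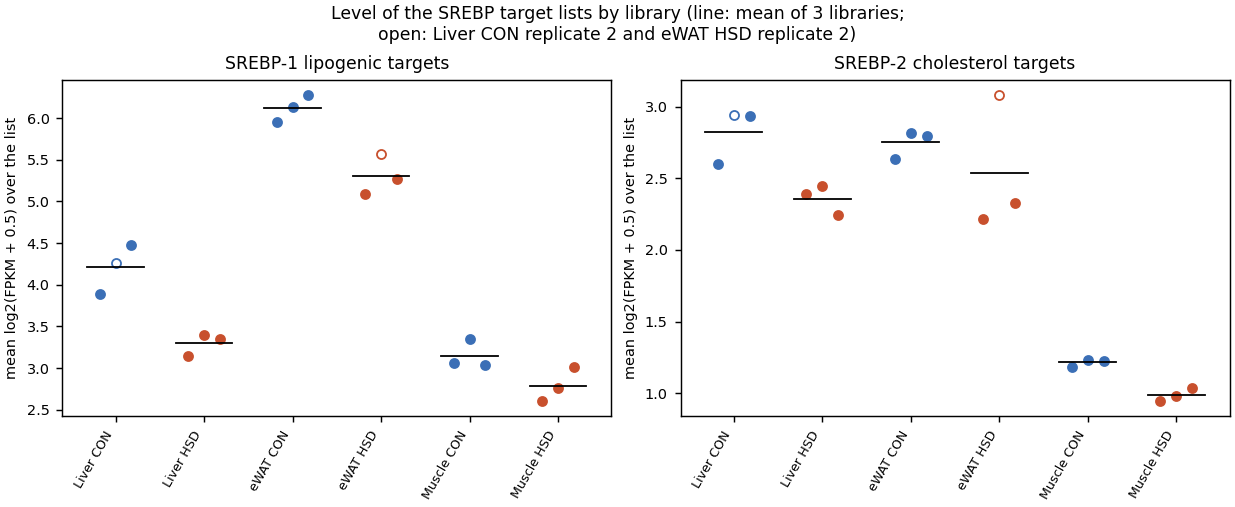
Mean of log2(FPKM + 0.5) over the SREBP-1 lipogenic targets (left) and the SREBP-2 cholesterol targets (right) in each library (y axis), by tissue and diet (x axis); lines are means of 3 libraries and open points are Liver CON replicate 2 and eWAT HSD replicate 2. HSD points lie under CON points in every tissue on the left, and on the right in liver and muscle, with 1 eWAT HSD point at 3.08 above its CON group.

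Targets of ChREBP and the LXRs had smaller medians. Of the ChREBP targets 8 of 13 were lower in liver, 7 of 11 in eWAT and 5 of 7 in muscle, with medians of -0.16, -0.08 and -0.12 and 0 called in each. Without Liver CON replicate 2 it was 6 of 12 in liver with a median of 0.06, and in eWAT the median ran from -0.22 to 0.11 with single libraries left out. Pklr, the liver pyruvate kinase, averaged 17.8 FPKM in Liver CON and 6.52 in Liver HSD (-1.33, adjusted p = 0.764), with no overlap of the libraries. Slc2a4, the insulin-responsive glucose transporter, had a difference of -1.94 in liver that rested on 15.5 FPKM in Liver CON replicate 2, the library with muscle transcripts. Gpd1 averaged 208 and 96.7 in eWAT (-1.16, adjusted p = 0.249) and 151 and 108 in muscle (-0.48, adjusted p = 0.145), and G6pc 2.01 and 0.580 in eWAT (-1.13, adjusted p = 0.257). Pdk4, the kinase that shuts pyruvate dehydrogenase, averaged 50.7 in Muscle CON and 182 in Muscle HSD (1.77, SE 0.41, adjusted p = 0.0873). With the replicate block, which does not pair mice by design, Pdk4 was called upregulated (adjusted p = 0.00219), where 0.498% of all genes were called.

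Of the LXR targets 7 of 12 were lower in liver, 8 of 11 in eWAT and 5 of 8 in muscle, with medians of -0.13, -0.10 and -0.14, and without Liver CON replicate 2 it was 6 of 12 in liver with a median of 0.07. In the limma tests behind these counts the only gene of the 6 lists called was Pltp, the phospholipid transfer protein, which was downregulated in muscle from 4.67 FPKM ± 0.101 to 1.91 ± 0.422 (-1.12, SE 0.15, adjusted p = 0.0157). Its adjusted p rose to between 0.0557 and 0.0873 without Muscle CON replicate 1, CON replicate 3 or HSD replicate 2. Cd5l, a macrophage gene, averaged 8.36 and 3.76 in liver (-1.10, adjusted p = 0.764) and 0.871 and 0.187 in eWAT (-1.03, adjusted p = 0.229), tissues in which the macrophage markers were also lower in HSD. Tlcd4 averaged 7.64 and 17.2 in liver (1.01, adjusted p = 0.764) and 0.700 and 1.92 in eWAT (1.06, adjusted p = 0.198).

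Genes that handle the SREBP precursors and the partners of the factors were close to the median of all genes. Of the processing and turnover genes 7 of 9 were higher in liver (median 0.27), 7 of 10 in eWAT (0.14) and 4 of 10 in muscle (-0.05), with 0 called. The liver genes with the smallest p were Rnf145, a ubiquitin ligase, at 2.12 and 3.06 FPKM (0.46) and Erlin2 at 2.71 and 3.79 (0.44), both with an adjusted p of 0.764. In eWAT they were Fbxw7, the ubiquitin ligase adaptor for nuclear SREBP, at 2.67 and 3.36 (0.29, adjusted p = 0.282) and the site-2 protease gene Mbtps2 at 1.92 and 2.41 (0.27, adjusted p = 0.348), and in muscle Erlin2 (-0.24) and Spring1 (-0.23).

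Of 20 partners and coregulators 17 were higher in eWAT HSD, 5 of them at an unadjusted p under 0.05, beside 16.7% of all genes. None was called, and the median was 0.17 against 0.08 over all genes. The corepressor gene Ncor1 averaged 17.4 and 26.5 FPKM (0.58, adjusted p = 0.157) and Mga, of the Max network, 3.64 and 5.74 (0.58, adjusted p = 0.170). In liver the LXR partner gene Rxra averaged 21.6 and 34.1 (0.63, adjusted p = 0.764) and Rxrg 2.23 and 1.45 (-0.46, adjusted p = 0.764). In muscle Ppargc1b averaged 1.97 and 1.13 (-0.62, adjusted p = 0.204) and Max 6.99 and 8.75 (0.31, adjusted p = 0.249).

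**Figure D5:**
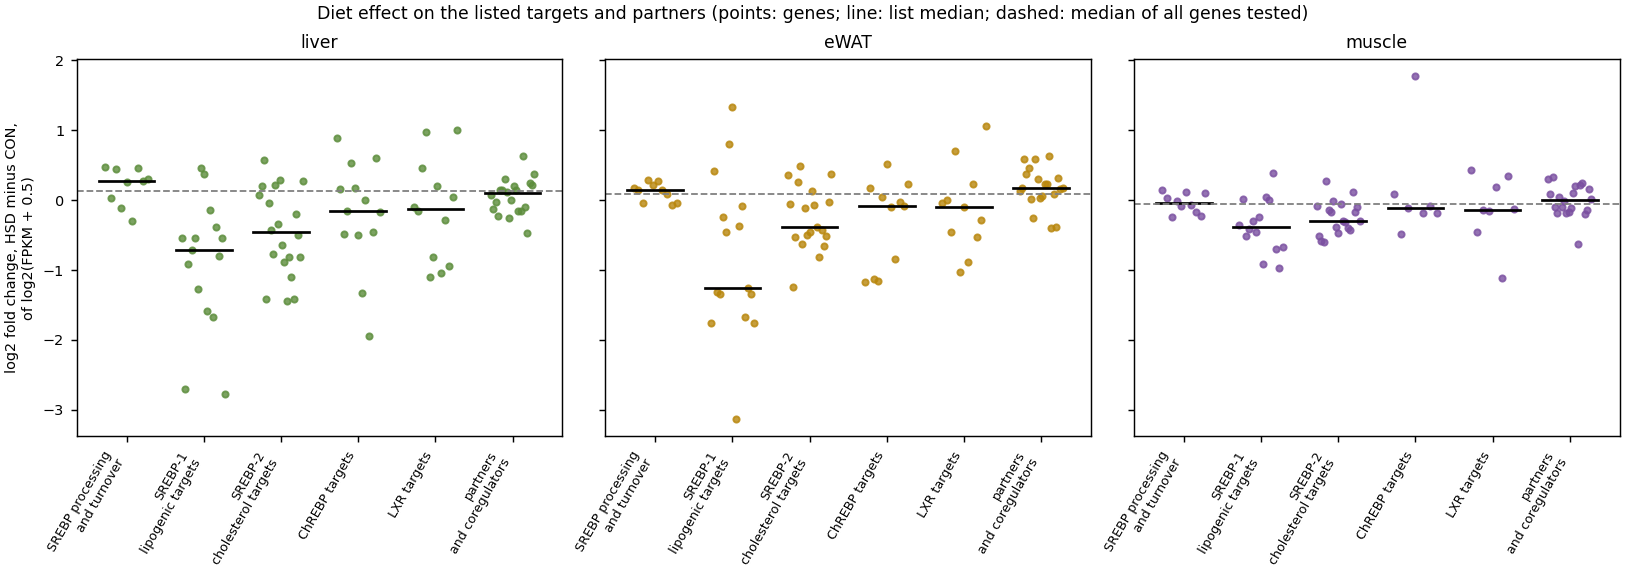
Difference of log2(FPKM + 0.5), HSD minus CON (y axis), for each tested gene of 6 lists (x axis) in liver, eWAT and muscle; points are genes, solid lines list medians and dashed lines the median of all genes tested. The SREBP-1 list has the lowest median in each tissue, -0.71, -1.26 and -0.39, and the processing list and the partners lie near the dashed line.

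Likeness between genes was described by Pearson's r of log2(FPKM + 0.5), each gene centred on its tissue mean, over 18 libraries and 13067 genes. These libraries share their depth and scale, the diet groups and the mice. The genes most like Insig1 were Fasn (r = 0.925), Acss2 (0.905) and Pgd (0.888), and the values were 0.929, 0.897 and 0.910 over 16 libraries, without Liver CON replicate 2 and eWAT HSD replicate 2. Nearest to Pnpla3 were Emp3 (0.951), Sh3kbp1 and Ndn (both 0.896), at 0.928, 0.791 and 0.792 without these libraries. Insig1 and Pnpla3 had an r of 0.680 with each other, and 0.634 without these libraries.

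Srebf1 was most like Zfp335 (0.868), Smarcd1 (0.852) and Gramd4 (0.850), and among the members it was nearest to Mlxipl (0.788, and 0.801 over 16 libraries), although over 16 libraries Scap was nearer (0.868, from 0.415). For Mlxipl the nearest genes were Slc12a5 (0.936), Slc22a4 (0.926) and Atad3a (0.925). Srebf1 and Insig1 had an r of 0.415, and Srebf1 and Insig2 of -0.666. Insig2 was most like Atxn10 (0.959), Rnf13 (0.950) and Poldip2 (0.946), Mlx most like Sdsl (0.850), Mpv17l2 (0.845) and Ufd1 (0.827), and Nr1h2 most like Gdpd3 (0.861), Prkag2 (0.812) and Bik (0.805). For these nearest genes r was 0.811 or above over the 16 libraries.

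For the remaining members r was lower without the libraries that stood apart. Srebf2 reached 0.969 with Mup6, 0.966 with Asb18 and 0.956 with Hs3st3a1, and these came to 0.578, 0.473 and 0.468 over 16 libraries. Nr1h3 reached 0.940 with Fmo1, 0.926 with Ppp2r1b and 0.917 with Rbms1, at 0.437, 0.781 and 0.472 over 16. Scap reached 0.923 with Itga2b and with Nsmf and 0.916 with Prdm10, at 0.785, 0.789 and 0.799 over 16.

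Some reads of the members may be shared with neighbours. In the annotation, exon bases of Mlx (385, with Psmc3ip), Scap (985), Mlxipl (235) and Srebf1 (109, with Rai1) are covered by genes on the opposite strand, and those of Pnpla3 (105), Nr1h3 (34) and Srebf1 (66, with a miRNA gene) by genes on the same strand. The libraries were stranded, but the strand setting of the counting is not given in the sources used here.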

How the data were processed

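RNA of liver, eWAT and quadriceps muscle was measured in 18 libraries, grouped by the tissue and treatment in their labels. The authors aligned reads to mm10 with HISAT2 and deposited FPKM per gene. The submitters' processing notes also name HTSeq (version 0.9.1), while the paper's methods give cuffdiff for FPKM. No other unit was used. Whole fragments were recovered from the deposited FPKM with union-exon lengths of GENCODE M21: within 0.02 fragments, 18330 of the 18822 genes with a value came out whole throughout. Totals of 7628071 to 16637489 fragments limit the precision of low genes, and intervals on fragments cover counting error only.

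Each tissue had its own limma fit of log2(FPKM + 0.5) with a trended eBayes (limma 3.58.1 in R 4.3.3), for genes with a mean of at least 0.5 FPKM. Tissues of CON mice and interactions were fitted in joint models. All p-values are 2-sided, and those of the diet fits within a tissue measure the spread between mice, 3 per group. The joint fits hold libraries of the same mouse from different tissues without a mouse term, so their p-values ignore this sharing. For the joint fits a further alternative entered the mouse as a random block. Tables were made in Python 3.11.15 (pandas 2.3.3, numpy 2.4.6) and figures with matplotlib 3.10.9. The fits were also run on simulated data without libraries of mixed tissue or differences in mitochondrial share. That run checked the fitting steps only and does not measure how well these libraries show a change.

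The members and lists were chosen with earlier results of these data known. Named genes are the 10 members, for each list and tissue the called genes (at most 3) or else the 2 with the smallest p, and the 3 genes most like each member. Some genes that this rule names are not reported here. Alternatives were other pseudocounts and filters, median-ratio scaling, mitochondrially encoded genes left out, arrayWeights, eBayes without trend, adjusted p alone, all tissues in 1 fit, a replicate block, voom, the study's 15 libraries, and each library left out. The 15 libraries taken as the study's leave out Liver CON replicate 2, Liver HSD replicate 3 and eWAT HSD replicate 3. They keep eWAT HSD replicate 2, the library with epididymal transcripts. After the data were seen, 2 combined settings, the settings of the lists and the ratios to Plin1 and Adipoq were added.

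CON and HSD mice are different animals. Deviations from group means correlated between libraries of the same number at 0.383, 0.177 and 0.184 in muscle. Muscle CON replicate 3 also correlated at 0.18 with HSD replicate 2, so the check does not settle a pairing. In eWAT (-0.197, 0.061, 0.414) and liver (-0.473, 0.395, -0.213) the correlations were of mixed sign. The replicate block is therefore given as an alternative only.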

Additional observations from a re-analysis of the deposited data

How the results depend on the processing

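Under settings other than leaving out single libraries, 367 diet effects of members kept their direction and call, 16 turned and 3 gained a call. With single libraries left out 160 were kept and 14 turned. The calls gained were Srebf1 in liver (-1.02) and Pnpla3 in eWAT (-1.16) with arrayWeights, and Pnpla3 in muscle with the replicate block. The cause was not tested. With 3 libraries per group and the low fragment counts of Pnpla3 in liver, depth limits that gene most.

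In liver the count of DEGs was 0, and 926 with arrayWeights, 41 with all tissues in 1 fit, 35 over the study's libraries, 1 with mitochondrially encoded genes left out and without Liver CON replicate 2, and 0 to 1 with single libraries left out. With mitochondrially encoded genes left out Nr1h2 turned to -0.20 and Nr1h3 to -0.019. Without Liver CON replicate 2 on that scale Mlx was -0.055, Nr1h2 -0.394 and Nr1h3 -0.35. Over the study's libraries Srebf2 was 0.013. With single libraries left out Srebf1 ran from -0.829 to 0.208 and Mlxipl from -0.964 to 0.04.

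In eWAT the count was 0, and 220 with arrayWeights, 161 with all tissues in 1 fit, 158 with median-ratio scaling without eWAT HSD replicate 2, and 0 to 160 with single libraries left out, the highest without eWAT HSD replicate 2. Median-ratio scaling turned Nr1h2 to -0.018. With arrayWeights Srebf2 was -0.036, Mlxipl 0.102 and Nr1h3 0.058, and with median-ratio scaling without eWAT HSD replicate 2 they were -0.135, 0.168 and 0.034. With single libraries left out Srebf2 ran from -0.098 to 0.614, Mlxipl from -0.312 to 0.206 and Nr1h3 from -0.622 to 0.073.

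In muscle the count of 35 was 7 with no filter, 97 by adjusted p alone, 5 with all tissues in 1 fit, 66 with voom, and 10 to 61 with single libraries left out. The replicate block, whose numbers do not pair mice by design, gave 54. The block changed no other call of a member in muscle, nor in eWAT and liver, where the counts stayed at 0. Median-ratio scaling turned Insig2 to 0.055 and Nr1h3 to 0.045, and leaving out mitochondrially encoded genes turned Mlx to -0.016. With single libraries left out Srebf1 ran from -0.128 to 0.29, Mlx from -0.086 to 0.061, Insig2 from -0.081 to 0.004, Nr1h2 from -0.005 to 0.135 and Nr1h3 from -0.073 to 0.002.

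Of the tissue differences of members under these other settings, 276 kept their direction and call, 12 turned, 15 gained and 7 lost a call. Between tissues, median-ratio scaling gave 5176 DEGs for eWAT against liver where the deposited scale gave 8768, and turned Srebf1 (-0.852), Srebf2 (-0.196), Mlx (-0.951), Insig2 (-0.862), Nr1h2 (-0.122) and Nr1h3 (-0.738). It also turned Nr1h2 to -0.274 for muscle against liver, and Mlxipl to -0.108 and Insig2 to -0.886 for eWAT against muscle. With mitochondrially encoded genes left out Mlx was -0.092 for eWAT against liver, Nr1h2 -0.233 for muscle against liver and Insig2 -0.053 for eWAT against muscle.

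The 99 genes whose diet effect differed between eWAT and liver came to 43 with median-ratio scaling, 53 with mitochondrially encoded genes left out, 5 with arrayWeights and 37 to 544 with single libraries left out. For muscle against liver the 8 genes came to 5 with a pseudocount of 0.1, 4 with mitochondrially encoded genes left out, 4 with arrayWeights and 1 to 59 with single libraries left out. For eWAT against muscle the 0 genes came to 19 with a pseudocount of 1, 21 with no filter, 2 with median-ratio scaling, 362 with arrayWeights and 0 to 145 with single libraries left out.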
